A study of Rattus norvegicus with 24 samples.

Results

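*Tnf*, *Lta*, *Ltb*, *Lst1* and *Aif1* are neighbours in the class III region of the rat major histocompatibility complex (MHC), and their mRNA was measured in a skin explant assay of the graft versus host reaction. They were taken as the genes named on non-control probes of the array files, or given for a probe by the study's list of MHC probes. The rule found 6 probes for the 5 genes, among 8453 probes for 7249 gene names on the array. These probes filled 35 of 15208 non-control spots on each array. Skin explants of 12 male BN rats aged 15 weeks, taken from the paws, were co-cultured for 3 days with lymphocytes from a 7-day mixed lymphocyte reaction (MLR). One explant of a rat received BN lymphocytes (syngeneic) and another received pre-stimulated PVG lymphocytes (allogeneic), and the lymphocytes of both groups had been cultured with irradiated BN spleen cells. On each array both RNA samples of 1 rat competed in Cy3 and Cy5, and a second array carried them with the dyes exchanged. An explant holds its own cells and may hold co-cultured lymphocytes, so that fewer cells of a type and less RNA per cell cannot be told apart.

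TNF and lymphotoxin-α are soluble cytokines of activated macrophages and lymphocytes, and both bind the TNF receptors. Lymphotoxin-β anchors lymphotoxin-α in the cell membrane, and the joint trimer binds the lymphotoxin β receptor, which shapes lymphoid tissue and induces chemokines. *Lst1* encodes a small membrane protein of leukocytes, and *Aif1* encodes Iba1, a calcium and actin binding protein of macrophages and dendritic cells.

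The allogeneic and the syngeneic sample were assigned to Cy3 or Cy5 by the sample labels, and a log2 ratio below 0 means a weaker signal in the allogeneic sample as labeled. The signs obtained in this way are opposite to those in the study's tables. For *Lst1* and *Aif1* they are also opposite to the study's quantitative real-time PCR in part of the same samples. The same holds for its PCR in separate explant assays and in skin of transplanted rats with graft versus host disease. None of these PCR measurements rests on the assignment of Cy3 and Cy5. Which sign holds was not tested here. With the sign turned, every "lower" or "decrease" in what follows reads as "higher" or "increase", and the reverse. The 12 rats were the replicates, with 2 arrays each, and they lay on 3 slides of 4 rats, with both groups on every array. In Cy3, 78.3% to 99.7% of the spots of an array exceeded the background clearly by the scanner software's test (well above background), and in Cy5 74.8% to 99.9% did. Array 1 of rat 10 was far brighter than the others, with a median intensity of 6668 in Cy3 and 25642 in Cy5 against 135 to 216 and 269 to 415 on the other 23 arrays. Its log2 ratios had a correlation of 0.13 with those of the second array of the same rat, across probes. This correlation was also low in rats 3 (0.20), 6 (0.26) and 2 (0.30), and it was 0.62 to 0.94 in the remaining rats. The arrays of rat 8 had a correlation of 0.94 with each other. Their median correlation with other rats was 0.25 and 0.18, against 0.48 to 0.68 for the remaining arrays other than array 1 of rat 10. Correlations between rats used arrays with the same assignment of dyes, whereas the 2 arrays of a rat have exchanged dyes, so the 2 kinds are not alike. Where leaving out array 1 of rat 10 or rat 8 changed a call of the 5 genes or moved a called value by more than 1.5 times, this is said beside it. Keratinocyte and fibroblast markers with a probe (*Cdh1* and *Tp63*, *Fn1*, *Pdgfra* and *Col1a2*) passed this test in both samples of all 24 arrays, and so did the T cell markers *Cd2*, *Cd3d* and *Cd3g*. Not every T cell marker did. *Cd247* passed on 16 arrays in the allogeneic and 19 in the syngeneic sample, *Cd4* on 13 in each, *Cd28* on 2 in each and *Cd8a* on 23 in the allogeneic sample. Most keratinocyte markers had no probe named for them (12 of 14), so that the labeled tissue was checked on few genes.

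The files place the 6 probes on chromosome 20 of the genome build rn3, from chr20:3659461-3659520 for the second *Lta* probe to chr20:3715789-3716370 for *Aif1*, a stretch of 56910 bases. The first *Lta* probe lies at chr20:3659957-3660016, *Tnf* at chr20:3662933-3662992, *Ltb* at chr20:3666936-3666995 and *Lst1* at chr20:3701635-3701694. *Lta*, *Tnf* and *Ltb* thus lie side by side, with gaps of 2916 and 3943 bases between their probes. *Lst1* lies 34639 bases beyond *Ltb*, and *Aif1* 14094 bases beyond *Lst1*. The *Aif1* probe has 60 bases but its coordinates span 582 bases. No annotation of rn3 was used here, and exon or intron is not given. The 60-base probes that measured *Tnf*, *Ltb*, *Lst1* and *Aif1* are shown as deposited, since every value that follows is the signal bound by them; none holds a part that needs capitals.
Tnf: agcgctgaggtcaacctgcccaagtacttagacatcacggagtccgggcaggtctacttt
Ltb: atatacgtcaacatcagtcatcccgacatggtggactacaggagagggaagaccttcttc
Lst1: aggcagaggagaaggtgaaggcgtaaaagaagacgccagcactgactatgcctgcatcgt
Aif1: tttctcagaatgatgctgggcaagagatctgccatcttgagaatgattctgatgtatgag

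The GC content was 55% for the *Tnf* probe, 48.3% for *Ltb*, 53.3% for *Lst1* and 41.7% for *Aif1*. The longest run of bases that a member's probe shared with any of the other 8452 probes, on either strand, was 12 or 13, and it was 6 or 7 between members. The *Tnf* probe was spotted 12 times on each array, the first *Lta* probe 9 times, *Ltb* and *Aif1* 5 times, *Lst1* 3 times and the second *Lta* probe once. The SD of the log2 ratio between spots of a probe on 1 array had a median between 0.045 for *Aif1* and 0.083 for the first *Lta* probe.

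All 5 genes were lower in the allogeneic sample as labeled, by amounts that ranged from 1.12-fold for *Tnf* to 2.76-fold for *Lst1*. All 6 probes passed the threshold of an adjusted p of 0.05 (limma with Benjamini-Hochberg adjustment over 8453 probes), where 17.3% of all probes were called, 8.48% lower and 8.78% higher. The first *Lta* probe, *Lst1* and *Aif1* were below 0 in all 12 rats, as were 3.55% of all probes. *Lst1* and *Aif1* were lower by more than 2-fold, as were 0.651% of all probes. The median log2 ratio of all probes was 0.011. Without rats 8 and 10 the means were -0.15 for *Tnf*, -0.41 for the first *Lta* probe, -0.47 for *Ltb*, -1.44 for *Lst1* and -1.31 for *Aif1*, with adjusted p up to 0.00931 (limma).

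*Tnf*, the cytokine that gives the cluster its name, had a signal close to the background. The signal of its probe minus the local background had a median intensity of 42.3 in the allogeneic and 48.7 in the syngeneic samples, leaving out array 1 of rat 10. The allogeneic sample was well above background on 21 arrays and the syngeneic sample on 23. The log2 ratio was lowest in rat 8 (-0.33), had a median of -0.14 and was highest in rat 4 (0.011). With this background correction the rats lay close together, with 11 of 12 below 0. The mean was -0.16 ± 0.099 (SD, n = 12 rats; adjusted p = 0.00191, limma). Its size and its spread depended on the background treatment, with -0.35 ± 0.21 for normexp with an offset of 0 in place of 50, -0.40 ± 0.25 in the deposited series table and -0.46 ± 0.30 for the processed signals of the scanner software. All of these passed the threshold, with adjusted p between 0.00148 and 0.00224.

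*Lta*, which encodes lymphotoxin-α, was read by a pair of probes. The first, well above background on every array in either sample, had a log2 ratio from -1.16 in rat 11 to -0.10 in rat 3, with a median of -0.31. All 12 rats were below 0, and rats 11 and 8 (-0.94) lay farther down than the others. The mean was -0.45 ± 0.34 (SD, n = 12 rats; adjusted p = 0.0047, limma), or 1.37-fold lower. The second probe was distinct from the background on only 4 arrays in the allogeneic and 11 in the syngeneic sample. Its mean was -0.14 ± 0.10 (SD, n = 12 rats; adjusted p = 0.00539, limma), with 11 of 12 rats below 0 and rat 11 again the lowest (-0.36). The first probe gave the lower ratio in 12 of 12 rats, by 0.31 ± 0.25 (SD). Across the 12 rats the ratios of both probes had a Pearson correlation of 0.91 and a Spearman correlation of 0.87, and the former was 0.79 without the 2 rats farthest from the median. As for *Tnf*, the size depended on the background treatment: with the processed signals the first probe was at -0.86 and the second at -0.70.

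*Ltb*, the membrane anchor of the lymphotoxin trimer, had a median intensity over background of 477 in the allogeneic and 747 in the syngeneic samples. The log2 ratio ranged from -1.13 in rat 8 to 0.027 in rat 3, with a median of -0.63. Rats 8 and 9 (-1.11) were the lowest, and rats 1 (0.018) and 3 were above 0. The mean was -0.54 ± 0.39 (SD, n = 12 rats, adjusted p = 0.00387, limma), or 1.46-fold lower, with 10 of 12 rats below 0. Here the background treatment made little difference, with -0.59 for an offset of 0 and -0.60 for the processed signals.

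*Lst1*, the leukocyte membrane protein gene, had the largest decrease of the 5 genes. The gene had a median intensity over background of 159 in the allogeneic and 603 in the syngeneic samples. Its log2 ratio was lowest in rat 9 (-2.27), had a median of -1.53 and was highest in rat 11 (-0.75), so that every rat was well below 0. The mean was -1.46 ± 0.44 (SD, n = 12 rats; adjusted p = 1.9e-05, limma), which placed the probe at rank 24 of 8453 by the size of the log2 ratio. Its size depended on the background treatment, with -1.70 for an offset of 0 and -1.76 for the processed signals. The syngeneic level lay between 8.85 and 10.35 on the log2 scale of normalized intensity, and the allogeneic level between 7.96 and 8.42, when rat 10 was represented by its second array. No allogeneic sample then reached the lowest syngeneic sample. Such a separation was found for 0.521% of all probes. With array 1 of rat 10 included, the allogeneic level of that rat rose to 10.09, and the groups overlapped. The log2 ratio of *Lst1* was -0.035 on array 1 of rat 10 and -2.17 on the second array of the same rat, and with the second array alone the mean over the rats was -1.55.

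*Aif1*, the gene of the macrophage protein Iba1, had a median intensity over background of 840 in the allogeneic and 2369 in the syngeneic samples. Its log2 ratio ranged from -2.46 in rat 9 to -0.42 in rat 11, with a median of -1.28. As for *Lst1*, rat 9 was the lowest and rat 11 the highest of the 12 rats. The mean was -1.27 ± 0.50 (SD, n = 12 rats; adjusted p = 1.02e-04, limma), or 2.42-fold lower, at rank 33 of 8453 by size. With rat 10 represented by its second array, the syngeneic level lay between 10.50 and 11.95 and the allogeneic level between 9.44 and 10.34, again without overlap. With both arrays of rat 10 the groups overlapped, since its syngeneic level fell to 9.52.

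**Figure D1:**
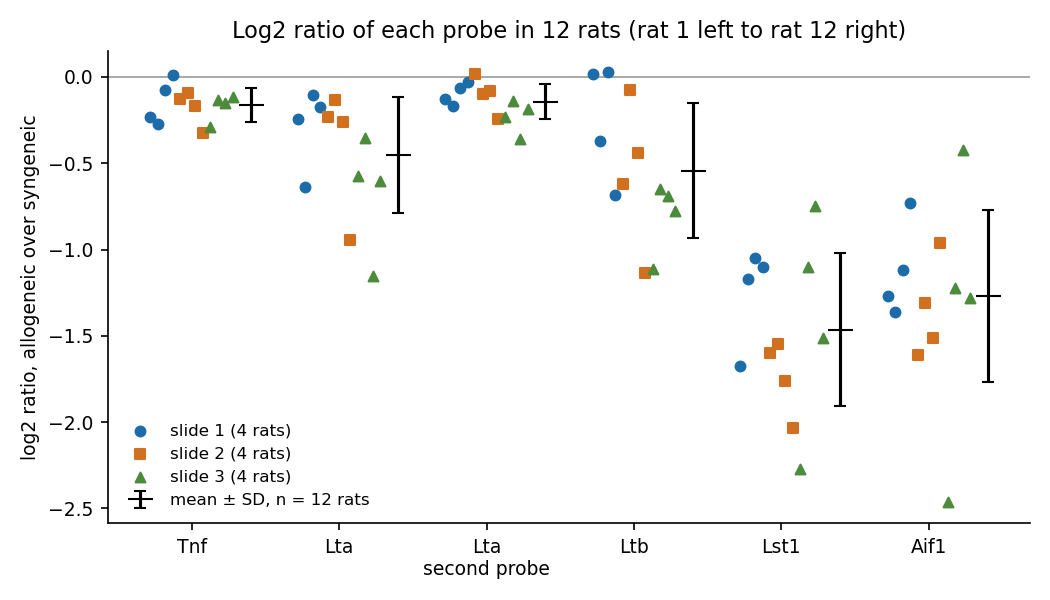
Log2 ratio (allogeneic over syngeneic) of each of the 6 probes in 12 rats, ordered from rat 1 to rat 12 within a probe; symbols give the slide, and the bar gives mean ± SD. *Lst1* and *Aif1* lie below 0 in all rats with means of -1.46 and -1.27, while *Tnf* stays between -0.33 and 0.011.

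The levels varied more between rats in the samples labeled syngeneic, and with the dye labels turned this would hold for the allogeneic ones. The log2 level of *Lst1* had an SD of 0.43 over the 12 syngeneic and 0.13 over the 12 allogeneic samples, with rat 10 represented by its second array. The same order was found for *Lta* (0.36 and 0.078 for the first probe), *Ltb* (0.38 and 0.22), *Aif1* (0.43 and 0.25) and *Tnf* (0.18 and 0.15). The allogeneic samples had the smaller SD for 67.8% of all probes, with a median SD of 0.17 in the syngeneic and 0.14 in the allogeneic samples. This order is thus common on the array, and the difference in SD was not tested. The levels of *Tnf*, *Lta* and *Ltb* overlapped between the groups: 5, 6 and 3 of the 12 allogeneic samples lay above the lowest syngeneic one.

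**Figure D2:**
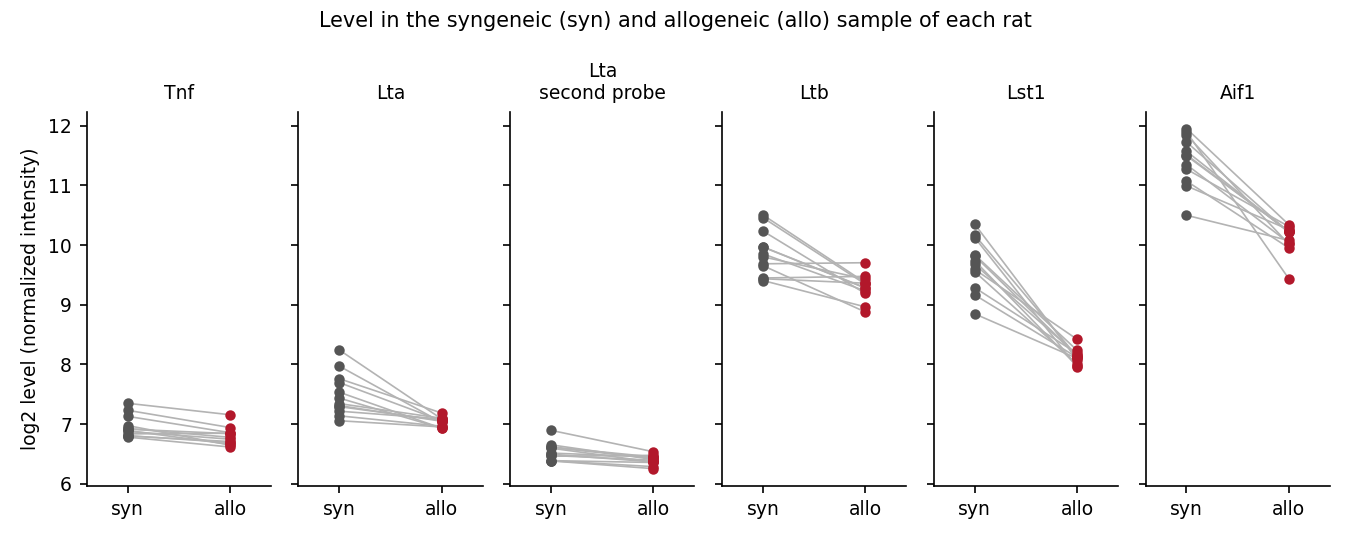
Log2 level (normalized intensity, which includes the offset of 50) in the syngeneic (gray) and allogeneic (red) sample of each rat, joined by a line, with rat 10 represented by its second array. Levels of different probes are not comparable; within a probe, the allogeneic samples of *Lst1* (7.96 to 8.42) and *Aif1* (9.44 to 10.34) lie below all syngeneic ones.

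The members were also compared by their change within a rat, with *Lta* read by its first probe. *Lst1* was lower than *Tnf* and *Ltb* in 12 of 12 rats and lower than *Lta* in 11. *Aif1* was lower than *Tnf* in 12 rats, than *Lta* in 11 and than *Ltb* in 10. *Lst1* and *Aif1* were not separated in every rat, with *Lst1* lower in 7 of 12 and a difference of -0.19 ± 0.35 (SD), but *Lst1* was lower in 10 rats with an offset of 0 and in 11 with the processed signals. The 3 cytokine genes had no order of their own that held across background treatments. *Lta* minus *Ltb* was 0.091 ± 0.33 with the offset of 50, -0.14 ± 0.43 with an offset of 0, -0.19 ± 0.46 in the series table and -0.26 ± 0.49 with the processed signals, so that the sign turned. *Tnf* minus *Lta* was 0.29 ± 0.30 and *Tnf* minus *Ltb* 0.38 ± 0.37, and these were 0.40 ± 0.49 and 0.14 ± 0.46 with the processed signals.

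**Figure D3:**
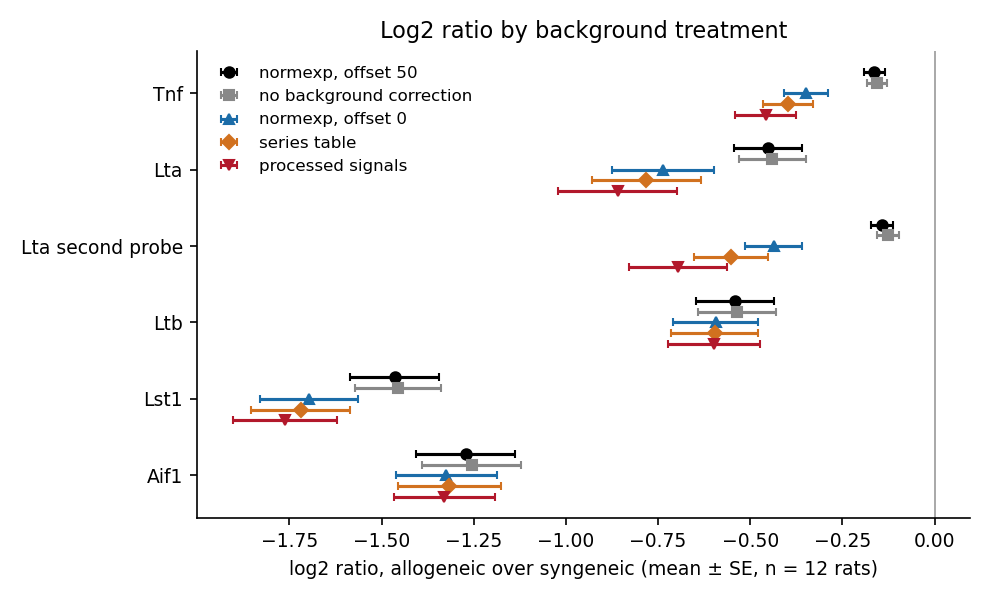
Mean log2 ratio ± SE (n = 12 rats) of each probe under 5 treatments of the local background. *Ltb* and *Aif1* stay nearly in place, while *Tnf* moves from -0.16 with normexp and an offset of 50 to -0.46 with the processed signals, and the second *Lta* probe from -0.14 to -0.70. *Lst1* moves from -1.46 to -1.76 between the same treatments.

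On each of the 3 slides the mean log2 ratio of all 6 probes was below 0. The means of *Lst1* on slides 1, 2 and 3 were -1.25 ± 0.29, -1.74 ± 0.22 and -1.41 ± 0.65 (SD, n = 4 rats), and those of *Aif1* were -1.12 ± 0.28, -1.35 ± 0.29 and -1.35 ± 0.84. For *Ltb* they were -0.25 ± 0.34, -0.57 ± 0.44 and -0.81 ± 0.21. No member differed between slides after adjustment (limma F test, adjusted p between 0.927 and 0.974), where 0% of all probes did. At an unadjusted p under 0.05 there were 217 of 8453 such probes, and no member was among them.

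The dye orientation shifted the size of several members but not the direction of their means. Within single rats the sign differed between the 2 arrays for *Ltb* in rats 1, 3 and 6, for *Tnf* in rats 3 and 4 and for the second *Lta* probe in rats 4 and 5. With the allogeneic sample in Cy5 the log2 ratio of *Lst1* was -1.23 ± 0.60 (SD, n = 12 rats), and with the allogeneic sample in Cy3 it was -1.70 ± 0.44. The same difference was seen for *Aif1* (-1.06 ± 0.51 and -1.48 ± 0.53) and *Ltb* (-0.42 ± 0.41 and -0.66 ± 0.39), and the Cy3 arrays gave the lower ratio in 12 of 12 rats for each of these 3 genes. *Tnf* went the other way, with -0.21 ± 0.13 and -0.12 ± 0.096, and the Cy5 array was lower in 11 of 12 rats. These 4 genes passed a limma test of the difference between orientations (adjusted p between 0.000507 and 0.0328), as did 52.0% of all probes. The 2 *Lta* probes did not pass (adjusted p = 0.335 and 0.251, limma). Rat 10, with its aberrant array 1, had the largest differences for *Lst1* (2.14) and *Aif1* (1.23). Without this rat the difference (Cy5 minus Cy3) was 0.32 ± 0.16 for *Lst1* and 0.35 ± 0.20 for *Aif1* (SD, n = 11 rats), against 0.47 ± 0.55 and 0.42 ± 0.32 with it, and the first *Lta* probe passed as well (-0.075 ± 0.070, adjusted p = 0.0196, limma). *Lst1*, *Aif1* and the first *Lta* probe were below 0 on all 24 arrays, *Tnf* and the second *Lta* probe on 22 and *Ltb* on 21.

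**Figure D4:**
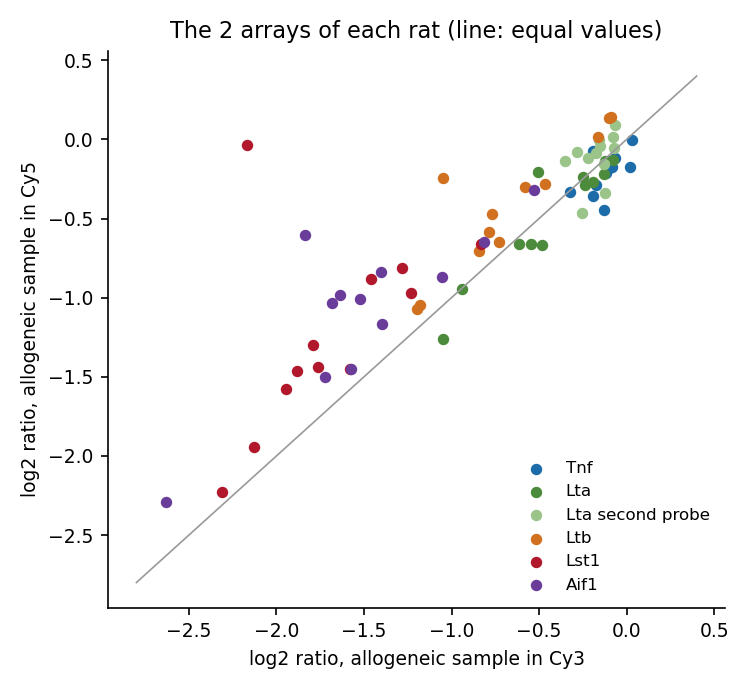
Log2 ratio (allogeneic over syngeneic) on the array with the allogeneic sample in Cy5 against the array with it in Cy3, 1 point per rat and probe; the line marks equal values. All *Lst1*, *Aif1* and *Ltb* points lie above the line, and the point farthest from it is *Lst1* in rat 10, with -0.035 against -2.17.

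The relations between the 5 genes across the 12 rats were compared for 10 pairs, with *Lta* as the mean of its probes. *Lst1* and *Aif1* had a Pearson correlation of 0.72 (permutation test, two-sided, p = 0.00677, adjusted over the 10 pairs p = 0.0677) and a Spearman correlation of 0.63 (permutation p = 0.0323, adjusted p = 0.0807). With all arrays this relation rested on the 2 rats at the ends of the *Lst1* range, since without rats 9 and 11 the Pearson correlation was 0.25. It depended on the arrays that stood apart. With rat 10 represented by its second array, the Pearson correlation was 0.77 (permutation p = 0.00292, adjusted p = 0.0292) and the Spearman correlation 0.69 (permutation p = 0.0168, adjusted p = 0.0758). Without rat 8 they were 0.90 (permutation p = 0.00018, adjusted p = 0.0018, n = 11 rats) and 0.85 (permutation p = 0.0016, adjusted p = 0.016). In these 2 settings, chosen after seeing the data, the Pearson correlation without the 2 rats farthest from the median of *Lst1* was 0.51 and 0.66. *Tnf* and *Lta* had 0.54 (permutation p = 0.0677, adjusted p = 0.169) and a Spearman correlation of 0.76 (permutation p = 0.0059, adjusted p = 0.059), with a Pearson correlation of 0.33 without rats 4 and 8. *Lta* and *Ltb*, whose products form 1 trimer, had 0.58 (permutation p = 0.0475, adjusted p = 0.158) and a Spearman correlation of 0.64 (permutation p = 0.0281, adjusted p = 0.0807). The other 7 pairs had Pearson correlations between -0.26 and 0.59, with permutation p between 0.0423 and 0.944. With all arrays no pair passed the threshold after adjustment. In the 2 other settings *Lst1* and *Aif1* passed by the Pearson correlation, but by the Spearman correlation only without rat 8. The other 9 pairs passed by neither. Without rat 8 the Pearson correlation was 0.41 for *Tnf* and *Lta*, 0.47 for *Lta* and *Ltb* and 0.14 for *Tnf* and *Ltb*, against 0.35 for the last pair with all rats. A slide holds 4 rats, too few for a value of its own; with the slide means removed, the correlation was 0.75 for *Lst1* and *Aif1*, 0.60 for *Tnf* and *Lta* and 0.42 for *Lta* and *Ltb*.

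The calls among the listed genes around the cluster lay near the shares of all gene names. The study lists 16 class III genes in a row from *Csnk2b* to *Bat1a*, and apart from the 5 members none of the other 11 was called lower and 1 was called higher, where 7.56% of all 7249 gene names were called lower and 8.64% higher (limma on the mean of a gene's probes). The median log2 ratio of these 11 genes was 0.010, against 0.012 for all genes, and at an unadjusted p under 0.05 (limma) 0 were lower and 2 higher. *Ncr3*, which encodes an activating receptor of natural killer cells, lies between *Lst1* and *Aif1* in this order and was at 0.0034 ± 0.077 (SD, n = 12 rats; adjusted p = 0.944, limma). *Nfkbil1*, next to *Lta* and named for its likeness to inhibitors of NF-κB, was at -0.064 ± 0.28 over 6 probes (adjusted p = 0.634, limma). The largest log2 ratios among the 11 were those of *Bat1a* (0.29 ± 0.37, adjusted p = 0.0679, limma) and *Csnk2b* (0.19 ± 0.38, adjusted p = 0.266, limma), each lower in 1 of 12 rats. The summed level of the 11 genes was taken on the linear scale, with rat 10 represented by its second array. It was higher in the allogeneic sample of all 12 rats, from 19255 to 23412 against 17867 to 20397 in the syngeneic samples. Such a sum rests most on the brightest genes, and its difference was not tested. *E230034O05Rik*, on the other side of *Aif1*, was at 0.026 ± 0.072 (adjusted p = 0.484, limma). The gene called higher was *Apom*, the apolipoprotein M gene, at 0.079 ± 0.075 (adjusted p = 0.0301, limma). The count of neighbours called higher was 0 with an offset of 0, 2 with the processed signals or with the second array of rat 10 alone, and 3 without rat 8.

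**Figure D5:**
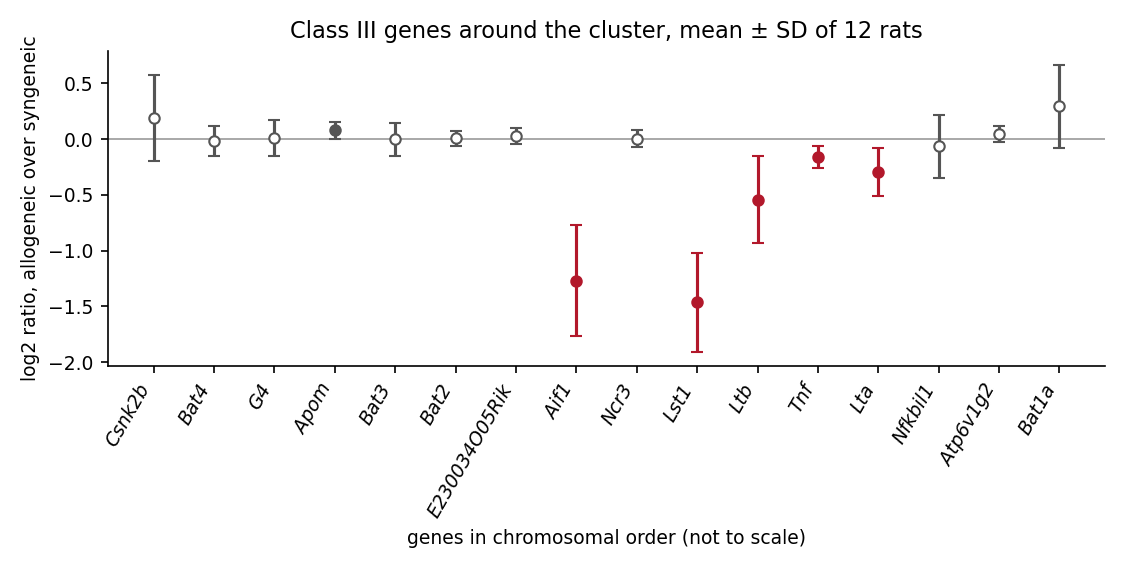
Mean log2 ratio ± SD (n = 12 rats) of the 16 class III genes in chromosomal order, not to scale; members are red, the others gray, and filled points had an adjusted p under 0.05. The 5 members lie below 0 next to each other, interrupted by *Ncr3* at 0.0034.

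All 4 receptors of these cytokines were clearly measured on every array. *Tnfrsf1b*, the TNF receptor found mainly on leukocytes, was lower in 12 of 12 rats, with a log2 ratio of -0.27 ± 0.17 (SD; adjusted p = 0.00278, limma) over 3 probes. *Tnfrsf14*, which encodes HVEM and binds lymphotoxin-α, was lower in 10 of 12 rats, from -1.75 to 0.37, with a mean of -0.63 ± 0.58 (adjusted p = 0.0161, limma). *Tnfrsf1a*, the TNF receptor of most cells, ranged from -0.23 to 0.13 around a mean of -0.0078 ± 0.11 (adjusted p = 0.897, limma). *Ltbr*, the receptor of the lymphotoxin trimer, ranged from -0.20 to 0.19 around 0.037 ± 0.11 (adjusted p = 0.486, limma). The first pair of receptors thus passed the test and the second pair did not, where 16.2% of all gene names passed.

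Of the enzyme that releases TNF and the adaptors of its receptors, 6 of 11 listed genes had a probe. None of these was called in either direction (median -0.031), against 7.56% of all gene names called lower and 8.64% higher. At an unadjusted p under 0.05 (limma) 0 were lower and 1 higher, and without rat 8 there were 2 called lower. The convertase *Adam17* was at 0.11 ± 0.41 (adjusted p = 0.558, limma) and the adaptor *Tradd* at 0.091 ± 0.13 (adjusted p = 0.128, limma). Among subunits, inhibitors and kinases of NF-κB, the transcription factor that TNF activates, 9 of 14 genes had a probe. Of these, 1 was lower (median -0.048), and with so few genes 1 call lies near the share of all gene names. The called gene was *Nfkbia*, which encodes the inhibitor IκBα and is itself induced by NF-κB, at -0.32 ± 0.32 (adjusted p = 0.0247, limma). The subunits *Rela* and *Nfkb1* were at -0.061 ± 0.15 and 0.032 ± 0.30 and did not pass.

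Genes known to be induced by TNF and NF-κB moved in both directions. Of all gene names, 7.56% were called lower and 8.64% higher. Of the 16 induced genes with a probe, 5 were lower, 2 were higher and 9 did not pass, with a median log2 ratio of -0.035. The largest decreases were those of *Il1b*, the interleukin-1β gene (-0.98 ± 0.53, 12 of 12 rats), the neutrophil chemokine *Cxcl2* (-0.79 ± 0.56, 11 rats) and the survival gene *Bcl2a1* (-0.74 ± 0.76, 11 rats), with adjusted p between 0.000695 and 0.0264 (limma, n = 12 rats). *Vcam1*, an adhesion molecule of endothelium (0.72 ± 0.67, adjusted p = 0.0162, limma), and *Tnfaip6*, a hyaluronan binding protein (0.49 ± 0.49, adjusted p = 0.0242, limma), were higher. *Ccl2* and *Ccl20* were at 0.018 ± 0.86 and 0.079 ± 0.88, with a spread between rats that far exceeded the mean. Among chemokines and the addressin induced through the lymphotoxin β receptor, 4 of 5 genes had a probe, 1 was higher (2 with the second array of rat 10 alone) and none was lower, also at an unadjusted p under 0.05 (median 0.27, limma). This was *Ccl21*, a chemokine for T cells and dendritic cells, at 0.26 ± 0.27 (adjusted p = 0.0326, limma). Among 18 interferon-γ induced genes with a probe, 8 were lower and 1 was higher (2 without rat 8; median -0.12), led by *Ubd* at -1.43 ± 0.65, *Ifi47* at -0.79 ± 0.30 and the immunoproteasome gene *Psmb8* at -0.42 ± 0.25.

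Some markers of the cells that express *Lst1*, *Aif1* and the cytokines were called, in both directions. Of 20 macrophage and monocyte markers, 11 had a probe, each measured above background throughout, so that none was at 0. Of these, 6 were lower and 2 were higher (median -0.22), against 7.56% and 8.64% of all gene names. With an offset of 0 or the processed signals 5 were lower and 1 higher. The protease *Ctss* was at -1.40 ± 0.61, the adaptor *Tyrobp* at -0.71 ± 0.32 and the leukocyte phosphatase *Ptprc* at -0.78 ± 0.92, with adjusted p between 1.76e-04 and 0.0495 (limma, n = 12 rats). The complement genes *C1qa* and *C1qc* were higher, at 0.21 ± 0.21 and 0.19 ± 0.21, while *Cd14* was at 0.011 ± 0.26 and *Adgre1* at -0.074 ± 0.17. The summed level of the 11 markers, on the linear scale, ran from 19518 to 35876 in the allogeneic samples (median 31583) and from 18644 to 43827 in the syngeneic samples (median 36385), and it was lower in the allogeneic sample of 10 rats, with rat 10 represented by its second array here and in the sums that follow. Their part in the values of *Lst1* and *Aif1* was not tested.

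Of 15 T cell markers, 11 had a probe. Of these, 5 were lower and none higher (median -0.26), against 7.56% and 8.64% of all gene names. *Cd5* (-0.97 ± 0.84), *Cd6* (-0.63 ± 0.49) and *Cd8b* (-0.49 ± 0.23) had the largest decreases, with adjusted p between 3.18e-04 and 0.0115 (limma, n = 12 rats). *Cd4* was at -0.045 ± 0.051 and exceeded the background on 13 arrays in each sample, and *Cd28* did on 2. The summed T cell level ran from 2894 to 4560 in the allogeneic and from 3558 to 6692 in the syngeneic samples. It was lower in the allogeneic sample of 9 rats. Of the natural killer cell markers 3 of 9 were lower (*Gzmb* at -0.69 ± 0.47, *Nkg7* at -0.31 ± 0.20 and *Klrb1a* at -0.12 ± 0.11), with a summed level from 1778 to 2392 against 1860 to 2623. This sum was lower in the allogeneic sample of all 12 rats, and its difference was not tested. None of the 3 B cell markers was called (median -0.0058; 1 higher and 0 lower at an unadjusted p under 0.05, limma), with a summed level from 333 to 639 against 344 to 489. Of 5 dendritic cell markers, *Cd80* was lower (-0.10 ± 0.070) and *Flt3* higher (0.068 ± 0.049). The *Cd80* probe was above background on 5 arrays in the allogeneic and 11 in the syngeneic sample, and its call was lost with dim probes left out, as that of *Flt3* was with the median of its probes. Without rat 8, or with the second array of rat 10 alone, 2 dendritic cell markers were lower. These markers had a summed level from 3446 to 5745 against 3581 to 7180. The part of these cells in the values of *Tnf*, *Lta* and *Ltb* was not tested.

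Markers of the skin itself were few, and 7.56% of all gene names were called lower and 8.64% higher. Neither of the 2 keratinocyte markers with a probe was called, and 1 was higher at an unadjusted p under 0.05 or with the second array of rat 10 alone (limma). *Cdh1* was at 0.20 ± 0.29 and *Tp63* at 0.30 ± 0.75, with a summed level from 17938 to 33100 in the allogeneic and from 9736 to 32757 in the syngeneic samples, where the lowest value was that of rat 8 and the next was 15311. Of 3 fibroblast markers the collagen gene *Col1a2* was higher (0.55 ± 0.40) and *Fn1* lower (-0.36 ± 0.39), while *Pdgfra* was at 0.41 ± 0.50 (adjusted p = 0.0588, limma). Without rat 8, with the second array of rat 10 alone, with an offset of 0 or with the processed signals 2 of the 3 were higher. They had a summed level from 39719 to 66411 against 36146 to 67112. Of 7 endothelial markers *Pecam1* (0.17 ± 0.13) and *Flt1* (0.075 ± 0.077) were higher (1 of them without rat 8) and none was lower, also at an unadjusted p under 0.05 (limma), with a summed level from 14668 to 24757 against 14312 to 19598.

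The genes most like each member were taken by the Pearson correlation of the log2 ratio over the 12 rats, among 6411 named genes measured above background on 12 or more arrays. They are a description over 12 rats on 3 shared slides, and they carry no test. With rat 10 represented by its second array the correlation of *Ltb* and *Nrxn2* was 0.68; the others lay between 0.74 and 0.96 in that setting and without rat 8. *Lst1* was most like *Fcgr1* (r = 0.96), *C5ar1* (r = 0.96) and *Tnfaip8l2* (r = 0.95), which encode an Fc receptor, a complement receptor and a regulator of immune signaling. All 3 were lower, with log2 ratios of -0.52 ± 0.39, -0.90 ± 0.61 and -1.09 ± 0.47, and their correlations stayed at 0.95, 0.91 and 0.89 without rats 9 and 11. *Aif1* was most like *Cd38* (0.91), *Fcgr2a* (0.88) and *Pdcd2* (0.88), and these fell to 0.73, 0.57 and 0.61 without the 2 rats farthest from its median. *Lta* was most like *Gfi1* (0.94), a transcription factor of blood cells, *Il2rb* (0.93), the β chain of the interleukin-2 receptor, and *LOC687813* (0.92). The former pair was lower in 12 of 12 rats, with *Il2rb* at -0.63 ± 0.37 and *Gfi1* at -0.31 ± 0.25.

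*Ltb* was most like *Evl* (0.92), *Ptk2b* (0.89) and *Nrxn2* (0.89), whose mean log2 ratios were between 0.030 and 0.11, and none of the 3 passed the test. *Tnf* was most like *Mylk2* (0.90), *Ifngr2_predicted* (0.85) and *Ctsw* (0.82). *Ifngr2_predicted*, listed as a chain of the interferon-γ receptor, was lower (-0.18 ± 0.21, adjusted p = 0.0457, limma), and the other two did not pass. A correlation above 0.8 was reached by 5 genes for *Tnf*, 30 for *Lta*, 37 for *Ltb*, 58 for *Lst1* and 36 for *Aif1*. *Aif1l*, the paralog of *Aif1*, had no probe named for it.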

How the data were processed

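Per the file headers, mean spot intensities and median local background intensities in Cy3 and Cy5 were extracted by Feature Extraction before the authors deposited them, with no background subtraction. The headers give version 9.5.1.1 for the grid placement, and the study's methods name another version of the software. The same files hold processed intensities that the software had background-subtracted and dye-normalized, also as deposited. A table of log2 ratios for all arrays was deposited as well. The sample titles name stimulated against non-stimulated for it, and the background step is not stated. Its columns correlated with the allogeneic over syngeneic ratio of the processed intensities at 0.704 to 0.959 and were used as already turned, with column medians from -0.025 to 0.022. Printed probe sequences and coordinates are those of the array files. The submitters' processing notes name limma without a version.

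Processing used limma 3.58.1 and statmod 1.5.0 in R 4.3.3. Intensities were corrected by normexp (offset 50) and normalized by loess within arrays, with 536 control spots and 161 to 228 outlier spots per array left out and saturated spots (0 to 6) kept. After arrays with exchanged dyes had been given the opposite sign, spots were averaged per probe, then arrays per rat. Probes were tested by limma against 0 over 12 rats, with Benjamini-Hochberg adjustment over 8453 probes. As both samples of a rat share each array, the comparison is within rats. Gene values are means of a gene's probes. Names came from the study's probe lists for 736 probes, from RefSeq accessions (table of GRCr8, names only) for 4323 and from the files for 3394. Levels per sample are log2 intensities after loess and A-quantile normalization. A probe was well above background where at least 50% of its spots were. Slides were read from the headers. Correlations between members used 100000 permutations. The number of arrays limits the precision. The amplification kit differs between labels and methods. Scripts were tested on simulated data.

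The members and gene lists were chosen with earlier results of these data known. The text names all members, the 3 genes most like each, 4 receptors, *Aif1l*, and up to 3 called genes with the largest change per list. Other genes were chosen after their values were seen. Alternatives concerned the background, normalization, dye orientation, dim probes, outlier spots, slide, test, series table, probe averaging and single rats.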

Additional observations from a re-analysis of the deposited data

Results flagged for a closer look

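The log2 ratio differed between the dye orientations for 4 of the 5 genes by a limma test of the difference itself. The value with the allogeneic sample in Cy5 minus that with it in Cy3 was 0.47 ± 0.55 (SD, n = 12 rats) for *Lst1*, 0.42 ± 0.32 for *Aif1*, 0.24 ± 0.19 for *Ltb* and -0.090 ± 0.11 for *Tnf*. Without rat 10, whose array 1 stood apart, these values were 0.32 ± 0.16, 0.35 ± 0.20, 0.19 ± 0.068 and -0.11 ± 0.087 (SD, n = 11 rats). The mean of each of these genes was below 0 in both orientations.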

How the results depend on the processing

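All 6 probes stayed below 0 in every alternative tried: 14 alternatives other than single rats (13 for the second *Lta* probe, which the filter on dim probes removes), each rat left out, and both rats 8 and 10 left out, which was chosen after seeing the data. Calls were kept except for the second *Lta* probe with only the arrays that had the allogeneic sample in Cy5 (-0.11, adjusted p = 0.0626, limma); the cause was not tested. The values ranged from -1.76 to -1.23 for *Lst1*, -1.48 to -1.06 for *Aif1*, -0.66 to -0.42 for *Ltb*, -0.86 to -0.39 for *Lta* and -0.46 to -0.12 for *Tnf*. With each rat left out they lay from -1.53 to -1.39, -1.35 to -1.16, -0.59 to -0.49, -0.48 to -0.39 and -0.18 to -0.15, and for the second *Lta* probe from -0.16 to -0.12. The number of changed probes was 1459, and 2659 or 2500 with only the arrays that had the allogeneic sample in Cy5 or Cy3; the cause was not tested. It was 1155 to 2087 with 1 rat left out, the highest without rat 8, and 2134 without rats 8 and 10. Over all lists, 32 genes were lower and 11 higher, against 31 to 38 and 10 to 15 in the alternatives; without rat 8, 2 of the convertase and adaptor genes were lower. The comparison is paired throughout, as every ratio is a difference within a rat, and all 6 calls were kept with the rat as a random block over the 24 arrays. The Pearson correlation of *Lst1* and *Aif1* was 0.72 (permutation test, adjusted p = 0.0677). It passed the threshold with the second array of rat 10 alone (0.77, permutation test, adjusted p = 0.0292) and without rat 8 (0.90, permutation test, adjusted p = 0.0018). Their Spearman correlation passed only without rat 8. Why was not tested. Members with low signal (*Tnf* and *Lta*) have sizes that depend on the background treatment, and so does *Lst1* (-1.46, and -1.76 with the processed signals).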
